A study of Homo sapiens with 24 samples.

Results

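HS578T and SUM149PT, both established human breast cancer cell lines, were compared at baseline, after 24 hours in DMSO, the solvent given to the control cultures of a drug experiment. HS578T was derived from a carcinosarcoma of the breast and SUM149PT from an inflammatory breast carcinoma. The comparison used 6 of the 24 arrays of the series, 3 for each line, picked by cell line and treatment as labelled and by no measured value. RNA was read on Affymetrix arrays as a linear signal in arbitrary units for each probe set, and the remaining 18 arrays held both lines with the inhibitor AZD3965, the SUM159PT line with DMSO or AZD3965, and SUM149PT cells carrying a scramble or an MCT1 shRNA. The cells of both DMSO groups carried no shRNA vector.

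The lines did not share a medium. HS578T was kept in DMEM, and SUM149PT in F12. Both media held FBS at 10% and Penstrep at 1%, and the F12 medium also held insulin and hydrocortisone at 10 µg/ml each, EGF at 10 ng/ml and gentamicin at 0.5 mg/ml. Cell line and medium therefore changed together and cannot be told apart in these arrays. SUM159PT, another breast cancer line, was kept in the F12 medium, and its levels under DMSO are set beside the others as values only. Each group was 1 line, so a difference is one between these lines and not between classes of tumour. The labels do not say whether the replicate arrays came from separate cultures, so the p-values measure only the spread between arrays, which may be technical.

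Epithelial cells are held together by adherens junctions built on E-cadherin, by tight junctions that seal the sheet, and by desmosomes anchored to keratin filaments. Mesenchymal cells lack most of these contacts, carry N-cadherin and vimentin, and make fibrillar collagen and other matrix. Transcription factors of the ZEB, SNAIL and TWIST families repress E-cadherin and its partners in the epithelial to mesenchymal transition, and GRHL2, OVOL2 and the splicing factor ESRP1 hold the epithelial state. Breast cancer lines with basal features can lie on either side, and the pair is compared here as a mesenchymal line, HS578T, against an epithelial line with basal features, SUM149PT.

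The lines differed widely. HS578T carried RNA of the collagens COL3A1 and COL1A2, periostin, lumican and the PDGF receptor PDGFRA, each below the array median in SUM149PT, and SUM149PT carried E-cadherin, EPCAM, keratin 19, S100P, S100A8, CCL20 and CXCL1, each below the array median in HS578T. Of 14141 genes tested, 9079 (64.2%) passed a limma test at an adjusted p under 0.05. Of these, 4298 (30.4% of all tested) were higher in HS578T and 4781 (33.8%) in SUM149PT. At least a 2-fold difference on the scale of log2(signal + 16) was seen for 4253 genes (30.1%), with 2060 (14.6%) higher in HS578T and 2193 (15.5%) in SUM149PT, and 1619 genes differed at least 4-fold. For 9781 genes (69.2%) the 3 HS578T and 3 SUM149PT arrays did not overlap. The median log2 difference over all genes tested was -0.0157, so the lists described here are read against a centre near 0 and against shares of about 30.4% and 33.8%. Signals above 1000 units in one line and under 50 in the other were found for 110 genes in HS578T and 119 in SUM149PT.

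A difference is given throughout as HS578T minus SUM149PT on the scale of log2(signal + 16), so a negative value is a higher level in SUM149PT. The arrays held no detection calls, and the median signal of an array, between 52.02 and 60.54 units over the 6 arrays, serves as the yardstick of a dim signal. Values after ± are standard errors of the fit where they follow a log2 difference and SDs of 3 arrays where they follow a mean signal. Each gene said to be higher in a line passed the test, and among the genes chosen by the naming rule the arrays of the lines overlapped for LDHA and PC alone. Members named because they did not pass the test or lay below the filter were chosen after their values were seen. For a gene near 0 in one line the size of a difference depends on the offset, and that of CDH1 was -8.76 as analysed, -10.74 when 1 was added in place of 16 and -7.01 when 64 was. Of the called named genes, averaging over all probe sets of the gene gave a difference over 1.5 times smaller for 86 of 328, among them POSTN (6.46), CDH1 (-5.64), PDGFRA (3.12) and SCNN1A (-3.0), chosen after their values were seen, and over 1.5 times larger for 5. The correlation of log2 signals over the tested genes was 0.986 to 0.989 between HS578T arrays and 0.988 to 0.99 between SUM149PT arrays, and 0.791 to 0.795 between the lines. The signal ratio of the 3' to the 5' actin probe sets, a sign of RNA quality, overlapped (1.22 to 1.36), but that of GAPDH did not, at 0.904 to 0.938 in HS578T and 0.798 to 0.872 in SUM149PT, and its part in the results was not tested. Of 1179 list entries, 115 were not analysed here because no probe set carried the name, 112 lay below the low-signal filter and 952 were tested. The filter was set on the mean of all 24 arrays, of which 12 held SUM149PT cells and 6 HS578T cells, so a gene on in HS578T alone met it less easily. A gene dim in the other lines could in turn pass mainly through its SUM149PT signal. The counts and medians of every list therefore describe the members kept and follow in part from the filter. Without it, 384 of the 5634 genes below it would differ at least 2-fold, 260 of them higher in HS578T.

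E-cadherin, EPCAM and claudin 7, proteins of adherens and tight junctions, were bright in SUM149PT and far below the array median in HS578T. Other junction genes were bright in both lines, and of 22 on the array 11 averaged at least 50 units in HS578T and 19 in SUM149PT. CDH1, which encodes E-cadherin, read 9411, 8671 and 8233 units on the SUM149PT arrays and 5.32, 2.79 and 4.66 units on the HS578T arrays. All 3 HS578T values were far below the array median and no arrays overlapped, with a log2 difference of -8.76 ± 0.15 (SE, adjusted p = 6.06e-23). EPCAM, an epithelial adhesion protein, read 14445, 14913 and 15542 units on the SUM149PT arrays and 16.9, 10.7 and 9.9 units on the HS578T arrays (log2 difference -9.05 ± 0.22, adjusted p = 1.76e-20). CLDN7, a tight junction claudin, read 7047, 7861 and 6219 units on the SUM149PT arrays and 8.02, 4.07 and 7.41 units on the HS578T arrays (log2 difference -8.29 ± 0.21, adjusted p = 4.65e-20). Neither gene had an HS578T array near the array median. P-cadherin (CDH3), a cadherin of basal and myoepithelial cells, stood at 4508, 4622 and 3895 units in SUM149PT and 5.99, 5.69 and 6.25 in HS578T, a log2 difference of -7.63 ± 0.12 (SE, adjusted p = 1.45e-23). Among the adherens and tight junction genes, of 22 named on the array, 19 passed the low-signal filter, and of these 1 was higher in HS578T, 16 were higher in SUM149PT and 2 did not pass the test, with a median log2 difference of -3.67. The member higher in HS578T was CTNNA1, the alpha-catenin that ties cadherins to actin, at 9029 ± 304 against 5967 ± 208 units (mean ± SD, n = 3 each). CTNNB1, the beta-catenin of the same complex, did not pass the test at 12033 ± 1461 units in HS578T and 9233 ± 1225 in SUM149PT (adjusted p = 0.168), a member singled out after its values were seen.

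Promoters of epithelial genes lower in HS578T were searched on both strands for the letters CACCTG and CAGGTG, as a description of sequence. These are reverse complements of each other and are the E-box letters that ZEB and SNAIL factors are known to bind. Windows of 300 bases from RefSeq on GRCh38.p14 (250 before and 50 after a gene's start) were found for 28 of the 46 junction, desmosome, regulator and surface protease genes that were lower in HS578T. CDH1, EPCAM, ESRP1 and GRHL2 had no window in the table. Of the 41 windows of those 28 genes 17 held the letters (41.5%), against 3131 of 16498 windows (19.0%) of all genes tested and 7231 of 35116 (20.6%) in the whole table. For the mesenchymal and matrix genes higher in HS578T, 8 of 58 windows held them (13.8%). The shares count windows and not genes, and windows of the same gene are not independent. A match is a description of the sequence and not a binding site. Whether any factor acted on these genes was not tested. The 250 bases before the start are printed for the windows with at least 3 matches there, with the matches in capitals, as the stretches where the letters were densest. These lie at chr17:7262479-7262728 (minus strand) for CLDN7, chr19:6464021-6464270 (plus strand) for CRB3, a polarity protein of the apical membrane, chr19:10587313-10587562 (minus strand) for AP1M2, the sorting adaptor of polarised cells, and chr18:50195148-50195397 (minus strand) for MYO5B, a motor of apical recycling.
CLDN7: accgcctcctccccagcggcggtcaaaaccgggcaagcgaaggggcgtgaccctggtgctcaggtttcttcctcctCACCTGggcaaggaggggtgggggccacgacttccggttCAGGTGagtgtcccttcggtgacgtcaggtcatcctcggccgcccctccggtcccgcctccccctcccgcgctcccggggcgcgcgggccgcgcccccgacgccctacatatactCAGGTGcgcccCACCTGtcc
CRB3: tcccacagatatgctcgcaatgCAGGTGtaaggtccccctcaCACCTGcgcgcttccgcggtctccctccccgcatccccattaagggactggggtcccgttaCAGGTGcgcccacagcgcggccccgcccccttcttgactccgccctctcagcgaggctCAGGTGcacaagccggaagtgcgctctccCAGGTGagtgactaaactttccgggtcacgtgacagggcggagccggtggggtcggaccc
AP1M2: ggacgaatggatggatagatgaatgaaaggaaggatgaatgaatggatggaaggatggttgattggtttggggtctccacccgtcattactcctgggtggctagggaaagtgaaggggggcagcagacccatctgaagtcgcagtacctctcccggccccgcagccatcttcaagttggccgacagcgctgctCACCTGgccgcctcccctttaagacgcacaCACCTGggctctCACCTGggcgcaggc
MYO5B: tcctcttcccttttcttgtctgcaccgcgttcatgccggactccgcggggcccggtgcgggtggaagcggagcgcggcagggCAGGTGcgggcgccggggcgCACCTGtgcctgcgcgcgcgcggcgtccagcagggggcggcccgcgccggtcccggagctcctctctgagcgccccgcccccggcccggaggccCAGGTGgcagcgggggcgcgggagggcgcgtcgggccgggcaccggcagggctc
The printed CLDN7 window holds 4 matches, the CRB3 window 5 and the AP1M2 and MYO5B windows 3 each. Another CLDN7 window, at chr17:7263164-7263463 (minus strand), holds 0. CRB3, whose values were seen before it was chosen, read 39.1 units on average in HS578T and 664 in SUM149PT, a log2 difference of -3.7 ± 0.27 (SE, adjusted p = 1.7e-11).

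Desmosome genes, too, were higher in SUM149PT in 11 of 12 tested cases. Plakoglobin (JUP), which links desmosomal cadherins to the plaque, read 4233, 3351 and 3722 units on the SUM149PT arrays and 163, 138 and 166 units on the HS578T arrays. Plakophilin 1 (PKP1) read 494, 423 and 406 units on the SUM149PT arrays and 3.73, 3.41 and 5.46 units on the HS578T arrays. HS578T kept a JUP signal above the array median while PKP1 lay far below it, and neither gene's arrays overlapped (-4.46 ± 0.15 and -4.5 ± 0.16). PKP2 and periplakin (PPL) were lower in HS578T by a similar amount, -3.98 ± 0.22 and -3.72 ± 0.23. The list had a median log2 difference of -2.58. PERP, a tetraspan desmosome protein that p53 also induces, was the exception at 18489.9 ± 1459.7 against 11928 ± 383 units, a log2 difference of 0.63 ± 0.08 (SE, adjusted p = 1.68e-07).

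Most regulators of the epithelial state were higher in SUM149PT. EHF, an ETS factor of glandular epithelium, read 5358, 5509.7 and 6215 units on the SUM149PT arrays and 13.1, 1.41 and 0.925 units on the HS578T arrays, with a log2 difference of -8.12 ± 0.23 (SE, adjusted p = 4.12e-19). ESRP1, the factor that sets epithelial splice forms, read 109, 109.8 and 96.9 units in HS578T and 4009.6, 4149 and 3896 in SUM149PT (-5.06 ± 0.23). OVOL2, a ZEB repressor, read 52.1, 70.5 and 56.3 units in HS578T, close to the array median, and 1901, 1882 and 1922 in SUM149PT (-4.67 ± 0.14). The HS578T arrays of GRHL2 were uneven at 52.5, 8.48 and 14 units, yet all lay far below the SUM149PT values of 1145, 1023 and 1032 (log2 difference -4.87 ± 0.31, adjusted p = 1.65e-12). Of the regulators 0 of 11 tested members were higher in HS578T and 10 in SUM149PT (median log2 difference -3.61), and the member that did not pass was TFAP2A, an AP-2 factor, at 4935 ± 229 units in HS578T and 5291 ± 114 in SUM149PT (adjusted p = 0.191). The surface proteases and trafficking genes of epithelia were similar, and 0 of 11 tested members were higher in HS578T and 9 in SUM149PT (median log2 difference -3.78). SPINT2, an inhibitor of such proteases, stood at 6149.7, 6687 and 6479 units in SUM149PT and 16.7, 28 and 6.95 in HS578T. Matriptase itself (ST14) stood at 2384, 2664 and 2407 and 36.1, 29.2 and 16.4 units. MUC1 and HPN were the members that did not pass, MUC1 at 645 ± 64.9 units in HS578T and 772 ± 32.9 in SUM149PT. MAL2 and RAB25, which carry cargo to the apical side, differed by -7.62 ± 0.13 and -6.28 ± 0.13.

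**Figure D1:**
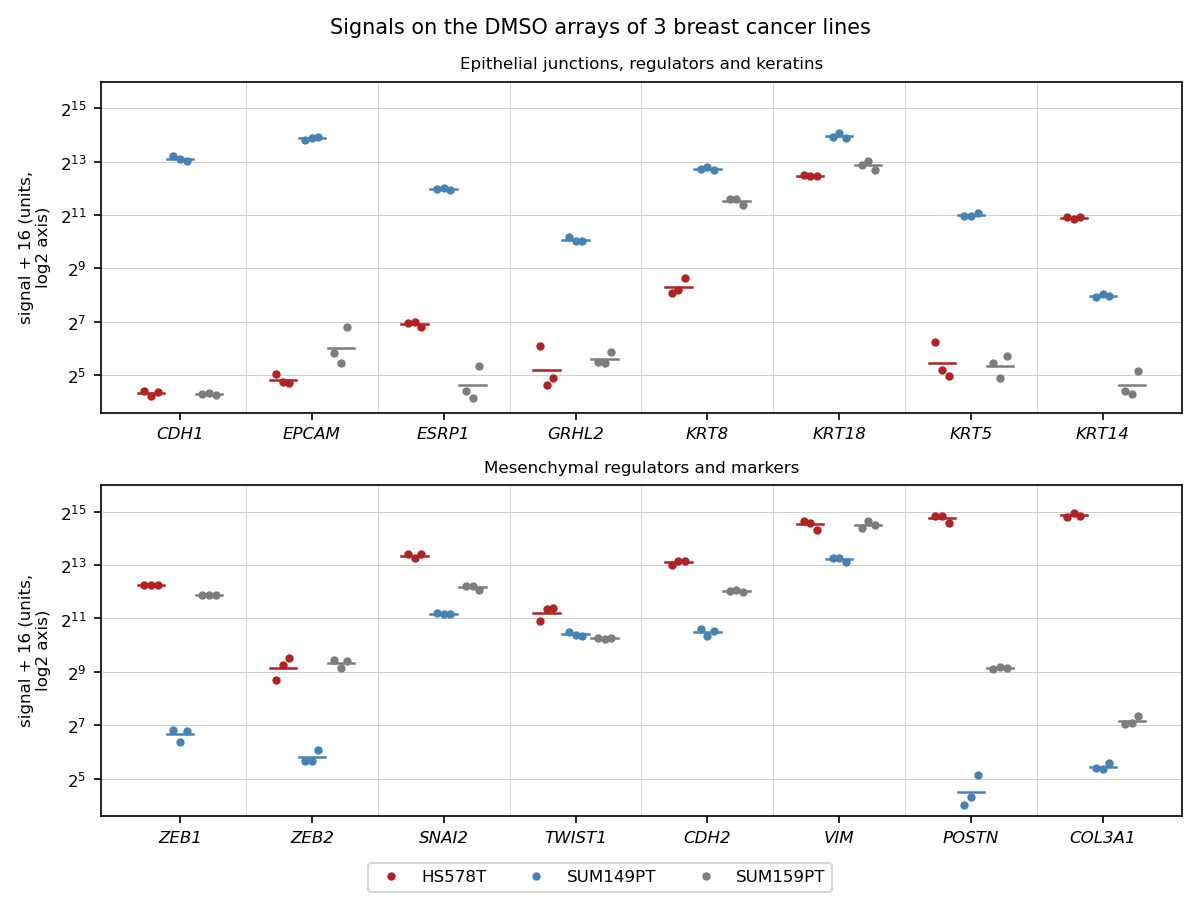
Signal + 16 in units on a log2 axis for 8 epithelial and 8 mesenchymal genes (x axis) on the DMSO arrays of HS578T, SUM149PT and SUM159PT, with each point an array and each bar the mean of the log2 values of 3 arrays. CDH1, EPCAM, ESRP1, GRHL2 and KRT5 were high in SUM149PT alone, KRT14 was highest in HS578T, and VIM, SNAI2, TWIST1 and CDH2 were above 1000 units in every line.

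Keratins separated the lines in a less uniform way. Simple keratins, the filaments of glandular cells, were higher in SUM149PT for all 5 tested, with a median log2 difference of -5.16. KRT19 was at 2.08, 1.21 and 1.16 units in HS578T and 4118, 4359 and 4357 in SUM149PT, a log2 difference of -7.94 ± 0.1 (SE, adjusted p = 3.42e-25). KRT7 was at 233, 151 and 181 units in HS578T and 23391, 25647 and 22156 in SUM149PT (-6.88 ± 0.11). HS578T was not free of simple keratin RNA. KRT18 read 5736, 5584 and 5568 units there against 15359, 17138 and 15192 in SUM149PT, a 2.82-fold ratio of the mean signals (log2 difference -1.49 ± 0.09, adjusted p = 1.25e-12). Its partner KRT8 read 254, 279 and 386 against 6769.7, 7073 and 6491 units (log2 difference -4.42 ± 0.17, adjusted p = 1.08e-16). Of the basal keratins, KRT5 was 59.3, 20.4 and 15.2 units in HS578T and 1973, 2002 and 2112 in SUM149PT (log2 difference -5.54 ± 0.31, adjusted p = 1.27e-13), and KRT16 followed it (-3.19 ± 0.3). KRT14, the usual partner of KRT5, went the other way, at 1913, 1806 and 1924 units in HS578T and 227, 245 and 231 in SUM149PT, a log2 difference of 2.92 ± 0.19 (SE, adjusted p = 2.05e-12). The basal keratin pair was therefore split between the lines, and KRT15 did not pass the test (-0.48, adjusted p = 0.0869, named as the remaining tested member).

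Genes of the keratinocyte envelope and of epithelial defence were higher in SUM149PT, with S100P and S100A8 among the 10 largest differences on that side. The calcium-binding proteins S100P, S100A8 and S100A9 were far below the array median in HS578T. S100P read 17715, 19764 and 17529 units on the SUM149PT arrays and 15.1, 25.2 and 9.65 units on the HS578T arrays (log2 difference -9.16 ± 0.17, adjusted p = 2.47e-22). S100A8 averaged 13.2 ± 10.6 units in HS578T and 10326 ± 691 in SUM149PT (-8.53 ± 0.29), and S100A9 averaged 8.93 ± 4.59 units in HS578T and 6758 ± 577 in SUM149PT (-8.1 ± 0.24). Elafin (PI3), an elastase inhibitor of inflamed epithelium, read 15718, 17509.5 and 16212 units on the SUM149PT arrays and 33.2, 40.8 and 51.3 units on the HS578T arrays, a log2 difference of -8.17 ± 0.16 (SE, adjusted p = 3.89e-22). In this list 0 of 16 tested members were higher in HS578T and 12 in SUM149PT (median log2 difference -5.65), and the 4 that did not pass were SPRR1A, KLK5, KLK6 and KLK7, at means of 30.8 to 98.9 units in the 3 lines. A member dim in HS578T and SUM159PT could pass the filter mainly through its SUM149PT signal. The count and the median follow in part from that. S100A7, which lay below the filter, averaged 499 units in SUM149PT and 3.5 in HS578T.

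On the mesenchymal side, ZEB1, PRRX1, FOXC2 and ZEB2 led the transcription factors. ZEB1, the repressor of E-cadherin named above, read 4928, 4896 and 4859 units on the HS578T arrays and 98.3, 66.9 and 93.1 units on the SUM149PT arrays. The HS578T arrays were close to each other and 56.9-fold above SUM149PT by mean signal, with a log2 difference of 5.6 ± 0.24 (SE, adjusted p = 7.31e-16). PRRX1, a homeobox factor of mesoderm, read 8165, 8551 and 7841 units on the HS578T arrays and 36.3, 43.8 and 43.3 units on the SUM149PT arrays (7.17 ± 0.18). ZEB2 read 400.4, 599.5 and 717 against 34.6, 34.9 and 50.5 units (3.37 ± 0.22), and FOXC2, a forkhead factor, averaged 3981 ± 75.4 units in HS578T and 313 ± 48.6 in SUM149PT (3.61 ± 0.17). SUM149PT was not without such factors. SNAI2 read 2322, 2286 and 2303 units there against 11035, 9704 and 10774 in HS578T (log2 difference 2.18 ± 0.07, adjusted p = 1.9e-18). TWIST1 read 1432, 1309.8 and 1272 units in SUM149PT and 1895, 2584 and 2703 in HS578T (log2 difference 0.82 ± 0.12, adjusted p = 3.27e-06). SNAI1, the other E-cadherin repressor of the family, was higher in SUM149PT at 135, 148 and 192 units against 28.3, 10.4 and 28.7 (-2.21 ± 0.43), as were ETS1 (-1.44 ± 0.15) and SOX9 (-0.56 ± 0.1). Of the EMT factors 8 of 13 tested members were higher in HS578T and 3 in SUM149PT (median log2 difference 1.11).

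N-cadherin and vimentin differed in degree and not in presence. CDH2 read 8163, 9120.1 and 9167 units on the HS578T arrays and 1524, 1288 and 1472 units on the SUM149PT arrays, a log2 difference of 2.61 ± 0.09 (SE, adjusted p = 1.55e-17). VIM read 25920.5, 24648 and 20304 units in HS578T and 9786, 9865 and 8897 in SUM149PT, a log2 difference of 1.3 ± 0.12 (SE, adjusted p = 6.09e-10). Neither overlapped between the lines, and the ratio of mean signals was 6.17-fold for CDH2 and 2.48-fold for VIM. PDGFRA, the receptor of mesenchymal growth, read 6715, 7439.7 and 8233 units on the HS578T arrays and 1.11, 2.4 and 1.03 units on the SUM149PT arrays, so that all 3 SUM149PT arrays were at the bottom of the scale (8.73 ± 0.16). THY1, a surface protein of fibroblasts, stood at 6889.8, 6974 and 6977 units in HS578T and 16.2, 61.8 and 68.6 in SUM149PT (6.87 ± 0.37). In the mesenchymal list 19 of 23 tested members were higher in HS578T and 3 in SUM149PT (median log2 difference 2.3). The 3 against this direction were FAP, a fibroblast surface protease, at 731, 691 and 592 units in HS578T and 1513, 1531 and 1474 in SUM149PT (-1.15 ± 0.12), the methyltransferase NNMT, and S100A4, whose difference was small (-0.24 ± 0.1, adjusted p = 0.0389). NNMT averaged 7033 ± 452 units in HS578T and 15349 ± 401 in SUM149PT (-1.13 ± 0.07). Fibroblast markers were 8 of 9 higher in HS578T, with a median of 3.48, and the exception was again S100A4. The S100A4 call was lost without replicate 1 or 3 of HS578T (adjusted p = 0.088 and 0.127) or replicate 2 or 3 of SUM149PT (0.0858 and 0.131), and with no trend (0.0561).

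The description of the lines as mesenchymal and epithelial thus held for the junction genes, ZEB1 and ZEB2, while SUM149PT also carried vimentin, N-cadherin, SNAI2 and TWIST1 far above the array median and HS578T carried KRT14 and KRT18. SUM159PT stood with HS578T in CDH1 (3.53 units on average), CLDN7 (9.07), ESRP1 (10.6), ZEB1 (3763) and PDGFRA (2950.0), in the medium that SUM149PT shared. It stood closer to SUM149PT in KRT7 (16571), COL3A1 (127), LUM (10.4) and THY1 (31.9). Correlations of the DMSO arrays over the tested genes were 0.863 to 0.871 between HS578T and SUM159PT and 0.841 to 0.849 between SUM149PT and SUM159PT, given as a description because the arrays share probes and scaling.

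Matrix genes gave the largest differences on the HS578T side. Periostin (POSTN), a matrix protein of activated stroma, read 29183, 29295 and 24398 units on the HS578T arrays and 0.306, 3.66 and 18.8 units on the SUM149PT arrays. The 3 HS578T signals were far above and the SUM149PT signals far below the array median, a log2 difference of 10.27 ± 0.26 (SE, adjusted p = 4.09e-20). COL3A1, the chain of type III collagen, read 28799, 31483 and 29109 units on the HS578T arrays and 26.5, 25 and 31.7 units on the SUM149PT arrays (log2 difference 9.42 ± 0.25, adjusted p = 8.21e-20). COL1A2, a chain of type I collagen, read 30636, 29739 and 25379.8 units on the HS578T arrays and 30.8, 16.7 and 38.7 units on the SUM149PT arrays (log2 difference 9.35 ± 0.4, adjusted p = 7.39e-16), and all 3 tested probe sets of each of these genes were called in this direction. COL5A2 and COL5A1, which set the width of collagen fibrils, followed at 7.33 ± 0.13 and 5.45 ± 0.18. COL1A1, the partner chain of COL1A2 in type I collagen (chosen after its values were seen), averaged 19557 ± 1412 units in HS578T and 1745 ± 157 in SUM149PT (3.48 ± 0.18). Of the collagens 18 of 25 tested members were higher in HS578T and 3 in SUM149PT (median log2 difference 1.65), and the 3 higher in SUM149PT were the basement membrane chains COL4A6, COL4A4 and COL4A5 (-2.01 ± 0.16, -1.37 ± 0.26 and -0.77 ± 0.1).

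The enzymes that process collagen were higher in HS578T almost throughout, with 20 of 22 tested members called, none of them in SUM149PT, and a median of 1.18. ADAMTS2, which cuts the procollagen amino end, read 1939, 1921 and 1984 units on the HS578T arrays and 3.96, 1.19 and 1.85 units on the SUM149PT arrays (6.75 ± 0.18). PCOLCE, which speeds removal of the carboxyl end, read 6089, 5621 and 5246 against 128, 146 and 80.4 units (5.43 ± 0.31). The crosslinking oxidases LOX and LOXL3 were present in both lines and 5.69-fold and 7.95-fold higher in HS578T by mean signal (2.5 ± 0.11 and 2.96 ± 0.17). PLOD2 and LOXL4, the members not called, had differences of 0.02 (adjusted p = 0.859) and 0.01 (adjusted p = 0.975).

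Proteoglycans and glycoproteins of the matrix followed the collagens, and 26 of 36 tested members were higher in HS578T and 2 in SUM149PT (median log2 difference 1.84). Lumican (LUM), a collagen-binding proteoglycan, read 9799, 12971 and 12998 units on the HS578T arrays and 5.86, 1.88 and 4.7 units on the SUM149PT arrays (log2 difference 9.2 ± 0.28, adjusted p = 1.5e-18). SPARC, a collagen-binding glycoprotein, read 18548, 19698 and 18812 units on the HS578T arrays and 34.5, 5.99 and 28 units on the SUM149PT arrays (log2 difference 9.02 ± 0.23, adjusted p = 6.58e-20). Both were below the array median on every SUM149PT array, and fibrillin 1 (FBN1) differed by 6.36 ± 0.18. Of the genes outside the lists, the sulfatase SULF1, the gap junction protein GJA1 and CCN4, a secreted WNT-induced protein, were among the 10 largest differences in HS578T. SULF1 averaged 20519.6 ± 1319.7 units in HS578T and 28.4 ± 4.59 in SUM149PT (8.86 ± 0.37). GJA1 averaged 13119 ± 719.7 units in HS578T and 12.7 ± 6.75 in SUM149PT (8.87 ± 0.17), and CCN4 averaged 6284 ± 397 units in HS578T and 11.2 ± 8.94 in SUM149PT (7.91 ± 0.23). Tenascin C (TNC), a glycoprotein of wound matrix, was the main member on the other side, at 4575, 3245 and 3976 units in SUM149PT and 266, 294 and 358 in HS578T (log2 difference -3.61 ± 0.14, adjusted p = 2.1e-16), and syndecan 4 (SDC4) differed by -1.98 ± 0.1.

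Basement membrane genes were divided. LAMB3, the laminin chain that anchors epithelia through hemidesmosomes, read 18215, 21381 and 17921 units on the SUM149PT arrays and 269.9, 387 and 332 units on the HS578T arrays, a log2 difference of -5.8 ± 0.14 (SE, adjusted p = 3.74e-20). The nidogens NID1 and NID2 were also higher in SUM149PT (-3.63 ± 0.27 and -3.11 ± 0.16), with NID1 below 1 unit on every HS578T array. LAMC1, LAMB2, HSPG2 and DST were higher in HS578T (1.63 ± 0.09, 1.36 ± 0.2, 1.79 ± 0.21 and 1.31 ± 0.18), although 1 of 5 DST probe sets was called the other way. Integrins, the receptors for these matrices, were divided as well. The collagen receptor subunit ITGA11 read 3217, 3307 and 2372 units in HS578T and 22.9, 54.6 and 76.4 in SUM149PT (5.54 ± 0.26), and ITGA8, ITGA4 and ITGA10 were also higher in HS578T (5.31 ± 0.25, 3.56 ± 0.27 and 2.65 ± 0.19). The laminin receptor subunits ITGA6 and ITGB4 were higher in SUM149PT, ITGA6 at 3724, 3954 and 3504 units against 296, 367 and 459 (log2 difference -3.28 ± 0.16, adjusted p = 7.26e-15). ITGB4 averaged 22.8 ± 23.3 units in HS578T and 184 ± 26.2 in SUM149PT (-2.51 ± 0.3). ITGB2 and ITGB8 went with them (-2.42 ± 0.26 and -2.37 ± 0.23). Laminins and hemidesmosome genes counted 6 higher in HS578T and 8 in SUM149PT of 17 tested, and integrins 8 and 5 of 18. Over all genes tested the shares were 30.4% and 33.8%, so members on both sides are common to most lists.

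Matrix proteases were divided between the lines. ADAMTS5, an aggrecanase, read 2799, 2506 and 2638 units on the HS578T arrays and 1.72, 3.22 and 10 units on the SUM149PT arrays (7.01 ± 0.26), and ADAM12, ADAMTS12 and the inhibitor TIMP3 were also higher in HS578T (5.62 ± 0.16, 5.21 ± 0.37 and 5.28 ± 0.18). In SUM149PT the gelatinase MMP9 stood at 1897, 2118 and 2006 units against 142, 146 and 148 in HS578T (log2 difference -3.65 ± 0.15, adjusted p = 3.29e-16), with MMP7, tissue plasminogen activator (PLAT) and TIMP4 alongside (-2.08 ± 0.31, -2.26 ± 0.16 and -3.93 ± 0.19). Of the list 11 of 26 tested members were higher in HS578T and 8 in SUM149PT (median log2 difference 0.42), near the shares of 30.4% and 33.8% over all genes tested.

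Contractile genes of smooth muscle and myoepithelium were higher in HS578T for 13 of 16 tested, with a median of 1.97. Smooth muscle actin (ACTA2) read 6071, 6103 and 5729 units on the HS578T arrays and 135, 136 and 224 units on the SUM149PT arrays, a log2 difference of 5.08 ± 0.14 (SE, adjusted p = 1.91e-19). The myosin kinase MYLK was close to constant within each line, at 7383, 7191 and 7646 and 296, 292 and 275 units (4.61 ± 0.08), and ACTG2 and MYL9 differed by 4.75 ± 0.22 and 4.0 ± 0.4. ACTN1, an actin crosslinker of both cell types, was the member higher in SUM149PT (-0.67 ± 0.09), on 1 of its 3 tested probe sets, and with their mean it was not called (adjusted p = 0.322). Targets and partners of YAP and TAZ, coactivators that respond to stretch, counted 15 higher in HS578T and 4 in SUM149PT of 23. CCN2, a matricellular protein and YAP target, read 26439, 25317 and 23838 units on the HS578T arrays and 591, 650.4 and 597 units on the SUM149PT arrays (5.33 ± 0.13), and DLC1, RBMS3 and CRIM1 followed (4.72 ± 0.11, 3.94 ± 0.17 and 2.51 ± 0.19). Tissue factor (F3) was the largest difference the other way in that list, at 14340.3, 13818 and 13043 units in SUM149PT and 1561, 1607 and 1635 in HS578T (-3.09 ± 0.13), beside LATS2 and TEAD4 (-1.56 ± 0.1 and -1.46 ± 0.1).

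**Figure D2:**
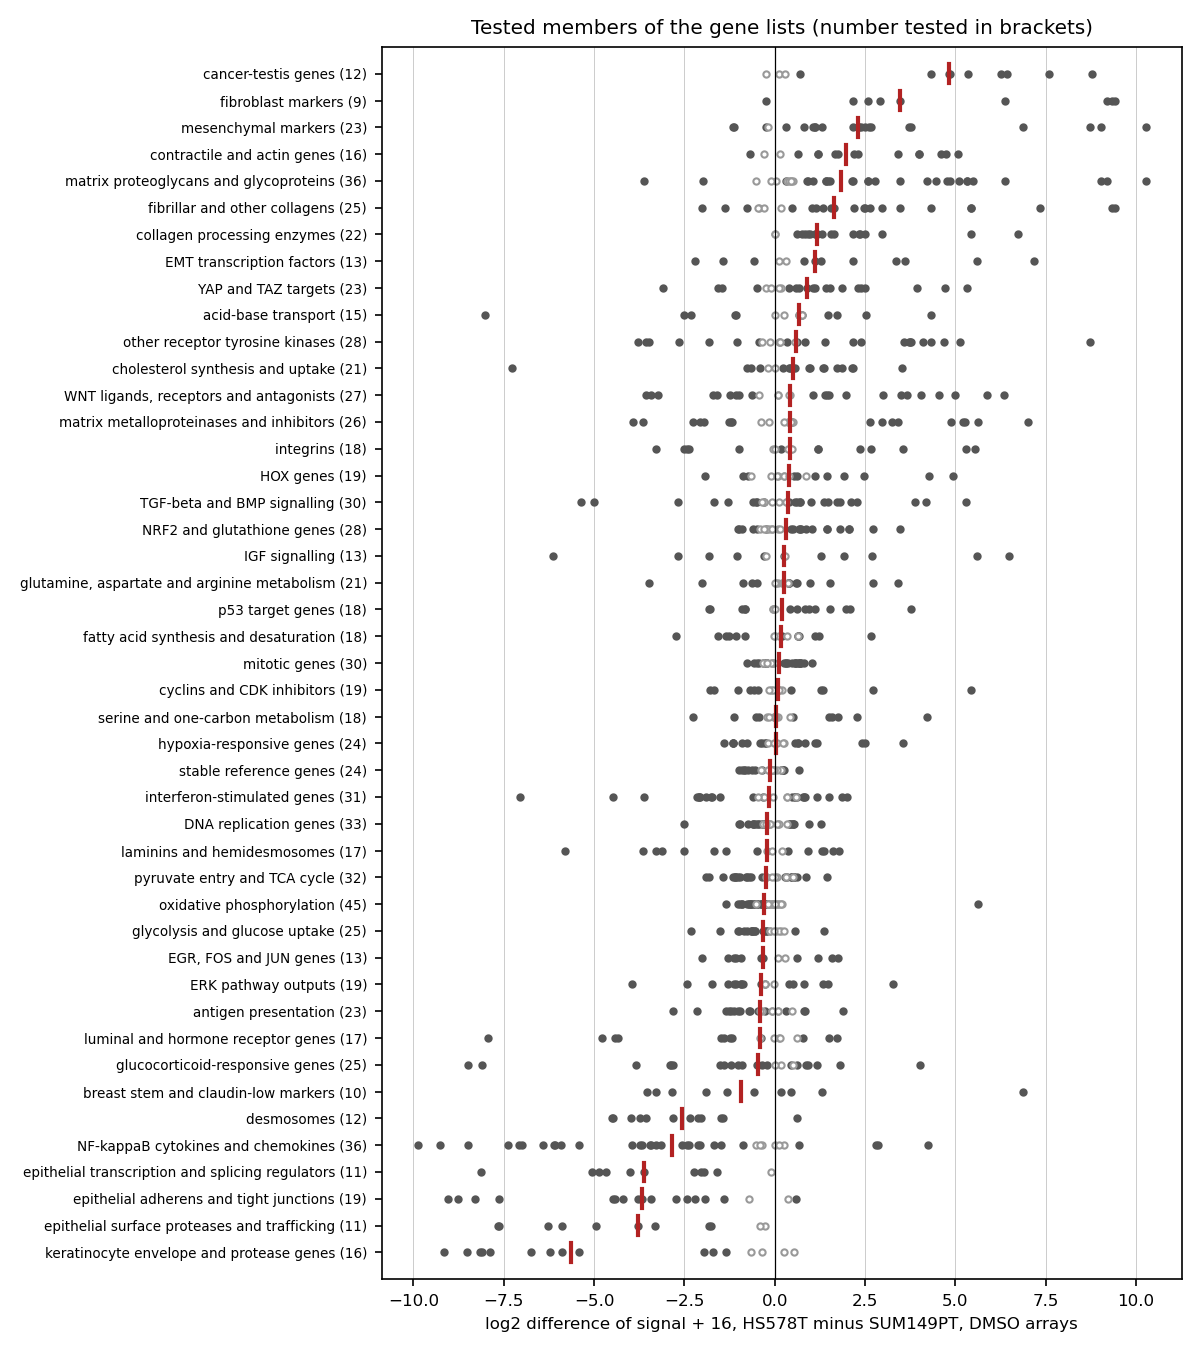
Each row is a gene list with at least 9 tested members and each point a member, placed by its log2 difference of signal + 16 (HS578T minus SUM149PT, x axis), filled where the limma adjusted p was under 0.05 and open where it was not, with a red bar at the list's median. Keratinocyte genes and the epithelial surface proteases lie furthest to the SUM149PT side (medians of -5.65 and -3.78) and cancer-testis and fibroblast genes furthest to the HS578T side (4.83 and 3.48), while metabolic and cell cycle lists sit close to 0. Members below the low-signal filter are not drawn, 8 of 20 cancer-testis and 8 of 24 keratinocyte genes among them.

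Hormone and growth factor receptors were next examined, since receptor status defines classes of breast cancer. The oestrogen receptor gene ESR1 was low in both lines, at 35.1, 22.2 and 55.8 units in HS578T and 108, 121 and 138 in SUM149PT, and the arrays did not overlap (log2 difference -1.41 ± 0.22, adjusted p = 6.41e-06). PGR lay below the filter, at 53.6 units in HS578T and 11.9 in SUM149PT on average. ERBB2 was at 742, 673 and 739 units in HS578T and 352, 503 and 411 in SUM149PT (log2 difference 0.76 ± 0.15, adjusted p = 8.6e-05), a 1.7-fold ratio. Its partner ERBB3, a receptor of luminal cells, was at 11.4, 36.1 and 19.7 units in HS578T and 949, 1044 and 1021 in SUM149PT (-4.78 ± 0.23). AGR2, a luminal secretory protein, was also higher in SUM149PT (-4.35 ± 0.16), while CA12, TBX3 and XBP1 were higher in HS578T (1.71 ± 0.08, 1.49 ± 0.14 and 0.78 ± 0.1). Of luminal genes 3 of 17 tested members were higher in HS578T and 9 in SUM149PT (median log2 difference -0.42).

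EGFR itself depended on the probe set. The probe set with the highest mean read 851, 779 and 898 units in HS578T and 2946, 2947 and 2865 in SUM149PT (log2 difference -1.78 ± 0.09, adjusted p = 3.82e-14), but of 4 tested probe sets 1 was called this way and 1 the other, and their mean differed by 0.18 (adjusted p = 0.244). Ligands of EGFR were mostly higher in SUM149PT, at 4 of 6 tested in the EGF family and 1 in HS578T. Epiregulin (EREG) read 5322, 5243 and 6078 units on the SUM149PT arrays and 13.4, 4.36 and 7.76 units on the HS578T arrays (log2 difference -7.84 ± 0.15, adjusted p = 3.32e-22). TGFA read 1812, 1800.3 and 2062 units on the SUM149PT arrays and 18.5, 12.8 and 28.2 units on the HS578T arrays (log2 difference -5.75 ± 0.2, adjusted p = 2.54e-17). Both were below the array median on every HS578T array. Betacellulin (BTC) and HBEGF differed less (-1.82 ± 0.32 and -0.44 ± 0.15). The HBEGF call was lost with the mean of its probe sets (a difference of 0.0, adjusted p = 0.993) and without replicate 3 of HS578T (0.0653) or replicate 2 of SUM149PT (0.059). Neuregulin 1 (NRG1), the ligand of ERBB3, was the ligand higher in HS578T, at 912, 844 and 684 units against 263, 216 and 235 (log2 difference 1.7 ± 0.15, adjusted p = 5.02e-10). SUM149PT medium held EGF, and SUM159PT in the same medium had 2279 units of EREG and 87.4 of TGFA. Whether the medium or the line set the ligand levels cannot be told apart.

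Other receptor tyrosine kinases had members higher in each line. Of these, 15 of 28 tested members were higher in HS578T and 7 in SUM149PT (median log2 difference 0.59), beside 30.4% and 33.8% of all genes tested. FGFR1 read 3076, 2925 and 2989 units on the HS578T arrays and 145, 132 and 127 units on the SUM149PT arrays (4.32 ± 0.13). ROR1, a WNT5A receptor, averaged 2151 ± 341 units in HS578T and 45.8 ± 3.57 in SUM149PT (5.12 ± 0.15), and the ephrin receptor EPHA5 was near 0 in SUM149PT (4.68 ± 0.28). In turn ROR2, EPHA1, the MSP receptor MST1R and FGFR4 were higher in SUM149PT (-3.77 ± 0.18, -3.57 ± 0.22, -3.49 ± 0.29 and -2.64 ± 0.27). Outputs of the ERK pathway were mixed at 6 higher in HS578T and 11 in SUM149PT of 19. The ERK phosphatases DUSP4 and DUSP6 were both higher in SUM149PT. DUSP4 read 4290.3, 3838 and 3651 units there and 232, 221 and 266 in HS578T (-3.95 ± 0.12). DUSP6 averaged 998 ± 113 units in HS578T and 3343 ± 359 in SUM149PT (-1.73 ± 0.11), and MYC was 2.44-fold higher in SUM149PT (-1.28 ± 0.08). Within the PEA3 group of ETS factors, ETV1 and ETV5 were higher in HS578T (3.27 ± 0.16 and 1.47 ± 0.09) and ETV4 in SUM149PT (-2.42 ± 0.15). Cyclin D1 (CCND1), which drives entry into the cell cycle, and SPRY1, an inhibitor of the pathway, were higher in HS578T (1.34 ± 0.07 and 0.83 ± 0.2), CCND1 at a 2.55-fold ratio of mean signals.

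Markers used for breast stem cells and claudin-low tumours gave no single direction, with 4 higher in HS578T and 6 in SUM149PT of 10. CD24, the surface glycoprotein low in such cells, was at 12017, 12752 and 12013 units in SUM149PT and 3427, 3284 and 3197 in HS578T, and all 6 tested probe sets agreed (-1.89 ± 0.11). CD44, the hyaluronan receptor, was slightly higher in HS578T on its brightest probe set (0.46 ± 0.06), but 8 of its 11 tested probe sets were called higher in SUM149PT and their mean differed by -0.73 (adjusted p = 1.1e-06). The aldehyde dehydrogenases ALDH1A3 and ALDH1A1 were higher in SUM149PT, the first at 4908, 5313 and 5313 units against 379.5, 474 and 439 (log2 difference -3.54 ± 0.12, adjusted p = 8.82e-18). ALDH1A1 averaged 10.5 ± 7.41 units in HS578T and 172 ± 49.3 in SUM149PT (-2.83 ± 0.27). ITGB1 differed little (0.18 ± 0.06), and median centring ended that call (adjusted p = 0.452).

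A set of inflammatory mediators was high in SUM149PT. CCL20, a chemokine that draws dendritic and T cells, read 18283, 21025 and 17216 units on the SUM149PT arrays and 5.61, 2.81 and 3.95 units on the HS578T arrays. All HS578T arrays were far below the array median, a log2 difference of -9.87 ± 0.16 (SE, adjusted p = 1.36e-23), the most negative difference among genes whose arrays did not overlap. CXCL1, a neutrophil chemokine, read 30196, 34437 and 29654 units on the SUM149PT arrays and 32.2, 31.7 and 42.1 units on the HS578T arrays (log2 difference -9.26 ± 0.14, adjusted p = 5.89e-24). IL1A, the alarm cytokine of epithelia, averaged 13.2 ± 11.6 units in HS578T and 4579 ± 259.6 in SUM149PT (-7.37 ± 0.19), with every HS578T array below the array median. Lipocalin 2 (LCN2) and complement C3, acute-phase proteins made by epithelia, were also high in SUM149PT. LCN2 read 14323, 16289.7 and 14506 units on the SUM149PT arrays and 33.2, 31.4 and 15.7 units on the HS578T arrays (log2 difference -8.49 ± 0.28, adjusted p = 8.59e-18). C3 read 15872, 18981 and 15696 units on the SUM149PT arrays and 8.84, 12.5 and 16.4 units on the HS578T arrays (log2 difference -9.21 ± 0.18, adjusted p = 3.83e-22). KYNU of the tryptophan pathway (-9.7 ± 0.18) and the annexin ANXA3 (-8.6 ± 0.13) completed the 10 largest differences on this side. Of the list of NF-kappaB cytokines and chemokines, of 40 named on the array, 36 passed the low-signal filter, and of these 4 were higher in HS578T, 26 were higher in SUM149PT and 6 did not pass the test, with a median log2 difference of -2.85. These too follow in part from the filter. Without it CCL2 and CCL7 would differ by 3.11 and 1.03, and CXCL5 by -2.48.

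Within that list the direction was not shared by every member. CXCL12, the stromal ligand of CXCR4, read 1637, 1410.4 and 1441 units on the HS578T arrays and 66.5, 54.8 and 69.6 units on the SUM149PT arrays, a log2 difference of 4.25 ± 0.18 (SE, adjusted p = 8.62e-16). CSF1, the macrophage growth factor, was at 3154, 2802 and 3246 units in HS578T and 375, 439 and 465 in SUM149PT (2.8 ± 0.13), and CCL26 and TSLP were also higher in HS578T (2.87 ± 0.36 and 0.68 ± 0.16). Among members chosen after their values were seen, IL1B, CXCL2 and CXCL3 averaged 9553, 9049 and 22452 units in SUM149PT and 103, 118 and 159.8 in HS578T. CXCL8 was abundant in both (23552 and 4530.5 units). IL6 averaged 1256 units in SUM149PT and 1254 in HS578T, with an adjusted p of 0.992. In SUM159PT, in the SUM149PT medium, CCL20 averaged 813 units, CXCL1 148, IL1A 60.5, LCN2 38.2 and C3 552, each far below the mean of SUM149PT. Each of these means was also above every HS578T array, far above for CCL20 and C3 and only slightly for LCN2. The part of the medium in these levels was not tested.

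**Figure D3:**
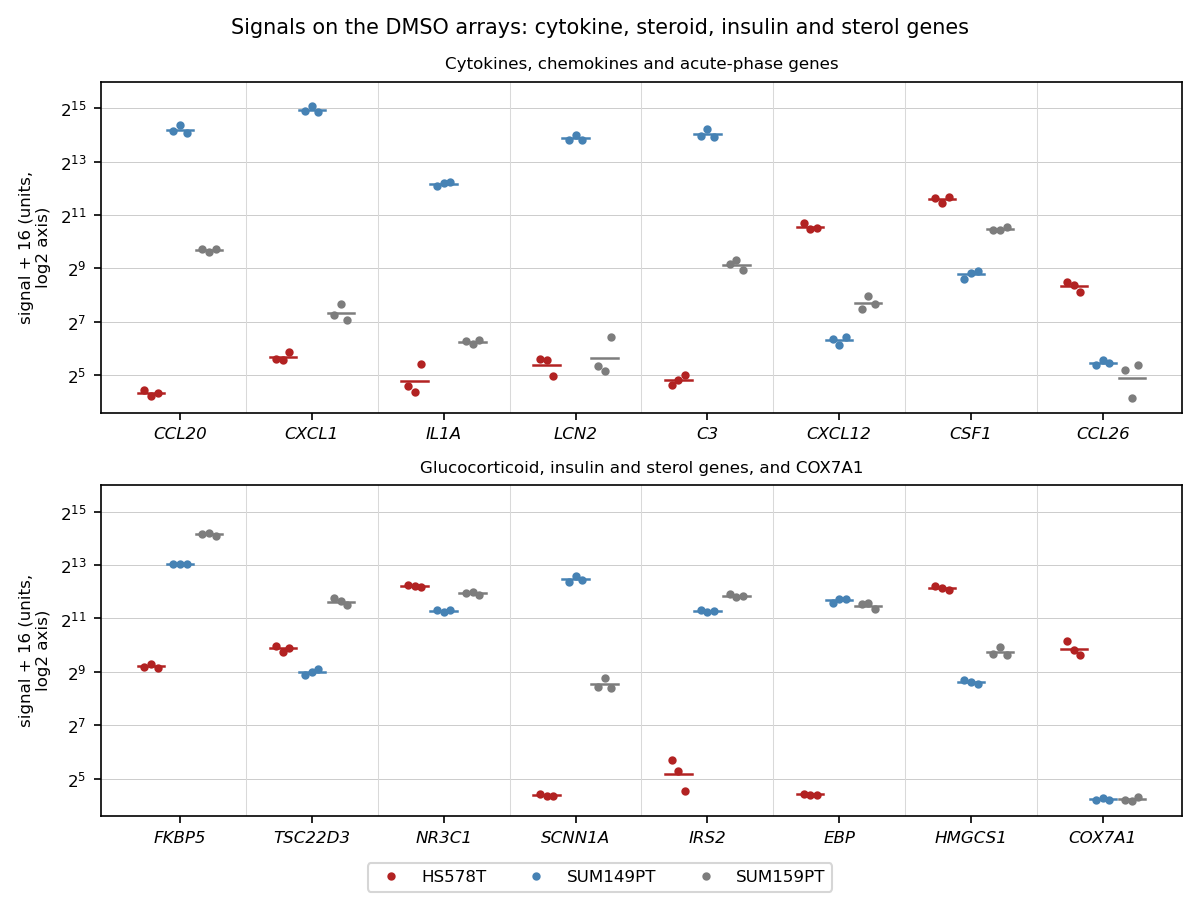
Signal + 16 in units on a log2 axis for 8 inflammatory genes and for 8 glucocorticoid, insulin, sterol and respiratory genes (x axis) on the DMSO arrays of the 3 lines, with each point an array and each bar the mean of the log2 values of 3 arrays. CCL20, CXCL1, IL1A, LCN2 and C3 were highest in SUM149PT and CXCL12, CSF1 and CCL26 in HS578T. FKBP5, IRS2 and EBP were higher in SUM149PT and SUM159PT, which shared a medium, than in HS578T, and TSC22D3 was lowest in SUM149PT. Line and medium cannot be told apart.

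Interferon-stimulated genes showed no common direction (11 higher in HS578T and 13 in SUM149PT of 31, median -0.16). BST2, a surface tether of viruses, was at 3584, 3949 and 3589.6 units in SUM149PT and 22, 5.41 and 11.4 in HS578T (log2 difference -7.05 ± 0.19, adjusted p = 1.13e-19), and IFI27, HERC5 and ISG20 were higher in SUM149PT as well (-4.47 ± 0.27, -3.6 ± 0.27 and -2.15 ± 0.17). XAF1, IFI6, SAMD9 and IFI35 were higher in HS578T (1.99 ± 0.26, 1.86 ± 0.25, 1.49 ± 0.12 and 1.18 ± 0.13). In antigen presentation 4 of 23 tested members were higher in HS578T and 12 in SUM149PT (median log2 difference -0.4). The immunoproteasome subunit PSMB8 and the peptide transporters TAP1 and TAP2 were higher in SUM149PT. PSMB8 read 2031, 2015 and 1894 units on the SUM149PT arrays and 392, 457 and 443 units on the HS578T arrays (-2.16 ± 0.13). TAP1 averaged 599.9 ± 41.4 units in HS578T and 1537 ± 84.3 in SUM149PT (-1.34 ± 0.12), and TAP2 differed by -1.27 ± 0.08. The aminopeptidase ERAP2 was higher in HS578T but uneven, at 1879, 2702 and 3369 units (1.88 ± 0.18), and the class II gene HLA-DRA was higher in SUM149PT (-2.82 ± 0.39) while HLA-DPA1 and HLA-DMA were higher in HS578T (0.84 ± 0.2 and 0.81 ± 0.18). HLA-E differed little (0.32 ± 0.08), a call lost with median centring (adjusted p = 0.15).

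Glucocorticoid-responsive genes bear on the medium, since hydrocortisone was present for SUM149PT and not for HS578T. FKBP5, a chaperone strongly induced by glucocorticoids, read 8424, 8399.8 and 8464 units on the SUM149PT arrays and 569.8, 610.0 and 555 units on the HS578T arrays, a log2 difference of -3.83 ± 0.08 (SE, adjusted p = 8.85e-22). SUM159PT, with hydrocortisone, averaged 18202 units. TSC22D3, another well-known target, did not follow, at 993, 844 and 947 units in HS578T and 460.2, 499 and 534 in SUM149PT (log2 difference 0.88 ± 0.11, adjusted p = 1.04e-07), with 3168 in SUM159PT and 1 of its 2 tested probe sets called. The glucocorticoid receptor NR3C1 was 1.91-fold higher in HS578T (0.93 ± 0.07). The sodium channel subunit SCNN1A read 5254, 6109 and 5548 units in SUM149PT, 5.67, 4.45 and 4.13 in HS578T (-8.09 ± 0.1) and 359 on average in SUM159PT, and MAOA was highest in SUM159PT (2669.9 units, -2.9 ± 0.2 between the lines compared). CRISPLD2, BCL6 and TIPARP were higher in HS578T (4.02 ± 0.2, 1.81 ± 0.11 and 1.18 ± 0.09). Of the list 7 of 25 tested members were higher in HS578T and 15 in SUM149PT (median log2 difference -0.47), and LCN2 was one of its members. Whether hydrocortisone or the line set these levels cannot be told apart.

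Genes of insulin and IGF signalling were split between the lines. IRS2, the docking protein of the insulin receptor, read 2519.6, 2427 and 2501 units on the SUM149PT arrays and 35.6, 22.7 and 6.95 units on the HS578T arrays (log2 difference -6.13 ± 0.19, adjusted p = 1.5e-18), and SUM159PT averaged 3685 units. IGF1R was 3.57-fold higher in SUM149PT (-1.8 ± 0.17), and IGFBP2 and INSR were also higher there (-2.68 ± 0.26 and -1.03 ± 0.27), the INSR call being lost with the mean of its probe sets (adjusted p = 0.249). The binding proteins IGFBP3 and IGFBP7 were higher in HS578T. IGFBP3 read 16085, 18641 and 15758 units on the HS578T arrays and 141, 215 and 166 units on the SUM149PT arrays (log2 difference 6.48 ± 0.14, adjusted p = 1.8e-21). IGFBP7 averaged 22549.9 ± 1411 units in HS578T and 449.6 ± 44.8 in SUM149PT (5.6 ± 0.16), with IGFBP4 and the RNA-binding protein IGF2BP3 behind them (1.93 ± 0.13 and 2.68 ± 0.12). The list counted 6 higher in HS578T and 5 in SUM149PT of 13, and 5 and 6 after median centring.

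TGF-beta and BMP genes had members on both sides. Higher in HS578T were the latent binding protein LTBP1 at 7415, 7023 and 7418 units against 347, 373 and 425 (log2 difference 4.2 ± 0.12, adjusted p = 2.75e-19), TGFB3 (2.27 ± 0.19), the activin chain INHBB (5.31 ± 0.35) and the activin antagonist follistatin (FST, 3.87 ± 0.25). The BMP antagonist GREM1 was at 1191, 1276 and 1226 units in SUM149PT and 9.12, 15.3 and 18.7 in HS578T (-5.37 ± 0.23), and the BMP targets ID1 and ID4 were higher in SUM149PT too. ID1 averaged 2178 ± 175 units in HS578T and 13873 ± 1035 in SUM149PT (-2.66 ± 0.12). ID4 differed by -4.99 ± 0.19, or by -1.46 on the probe set that an offset of 1 picks, and BMP2 itself was 3.28-fold higher in SUM149PT (-1.68 ± 0.14). Of the list 16 of 30 tested members were higher in HS578T and 9 in SUM149PT (median log2 difference 0.37).

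WNT genes had members higher in each line. Of the secreted antagonists, SFRP2 and DKK3 were higher in HS578T and SFRP1 in SUM149PT. SFRP2 averaged 1821 ± 189 units in HS578T and 7.41 ± 9.22 in SUM149PT (6.36 ± 0.28), and DKK3 averaged 3830.2 ± 69.6 units in HS578T and 50.4 ± 14.1 in SUM149PT (5.88 ± 0.18). SFRP1 read 10332, 11133 and 10783 units on the SUM149PT arrays and 1166, 1147 and 1057 units on the HS578T arrays (-3.24 ± 0.24). Of the receptors, FZD7 was higher in HS578T (4.54 ± 0.09) and FZD3 in SUM149PT (-3.56 ± 0.25), and of the ligands, WNT5B was higher in HS578T (5.0 ± 0.36) and WNT10A in SUM149PT (-3.43 ± 0.21). With an offset of 1 another probe set of WNT5B was the brightest, and its difference was 2.03 (adjusted p = 0.0519), against 6.12 on the same probe set. RSPO3, a WNT amplifier, differed by -1.71 ± 0.34. In all, 13 of 27 tested members were higher in HS578T and 9 in SUM149PT (median log2 difference 0.42), beside 30.4% and 33.8% of all genes tested. HOX genes, which record position along the body axis, were higher in HS578T for HOXB3, HOXB6, HOXB2 and HOXA2 (4.92 ± 0.33, 4.28 ± 0.33, 2.49 ± 0.36 and 1.93 ± 0.26). HOXC13, HOXC11 and HOXD8 were higher in SUM149PT (-1.94 ± 0.14, -0.87 ± 0.23 and -0.75 ± 0.21), and 8 of the 19 tested did not pass the test.

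The study describes its lines as highly glycolytic, and the RNA of glucose metabolism was compared next. Most members were higher in SUM149PT by small amounts. LDHA, which makes lactate, read 27338, 25079 and 22399.7 units on the HS578T arrays and 24479, 27644 and 23328 units on the SUM149PT arrays, and the arrays overlapped, with a difference of -0.01 ± 0.12 (adjusted p = 0.931). LDHB differed by -0.32 ± 0.1 (adjusted p = 0.00815), and without SUM149PT replicate 2 its adjusted p was 0.0649. The glucose transporter SLC2A1 was at 1959, 2109 and 1995 units in SUM149PT and 1232, 1222 and 1109.9 in HS578T, a 1.7-fold ratio (log2 difference -0.76 ± 0.07, adjusted p = 3.16e-09). Hexokinase 2 (HK2) read 2653, 2034 and 1976 units in SUM149PT and 1143, 1668 and 1470.3 in HS578T (log2 difference -0.64 ± 0.14, adjusted p = 0.000346). SLC2A3, ALDOC and PFKM were also higher in SUM149PT (-2.31 ± 0.16, -1.5 ± 0.3 and -1.02 ± 0.09), and SLC2A12 and PFKFB4 in HS578T (1.37 ± 0.43 and 0.57 ± 0.19). The SLC2A12 call was lost without replicate 1 of SUM149PT (adjusted p = 0.0511) and the PFKFB4 call without its replicate 3 (0.0633) or with median centring (0.0564). ENO3 differed by -0.99 ± 0.22, but the mean of its probe sets differed by 0.07 (adjusted p = 0.793). Of the list 2 of 25 tested members were higher in HS578T and 16 in SUM149PT (median log2 difference -0.32).

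Lactate and pyruvate leave and enter cells through monocarboxylate transporters (MCTs), and AZD3965 blocks one of them. SLC16A7, the gene of MCT2, was at 636, 628 and 685 units in HS578T and 409, 214 and 196 in SUM149PT (log2 difference 1.28 ± 0.24, adjusted p = 6.09e-05). Basigin (BSG), the chaperone of these transporters, differed little, at 2832, 2788 and 2621 units in HS578T and 2352, 2331 and 2301 in SUM149PT (log2 difference 0.24 ± 0.07, adjusted p = 0.00618), a call that median centring ended (0.13, adjusted p = 0.342). Embigin (EMB), the chaperone of MCT2, was 2.13-fold higher in HS578T (1.08 ± 0.09). SLC16A5 was at 675, 618 and 656 units in SUM149PT and 74.2, 31.2 and 81.2 in HS578T (-3.16 ± 0.27), and SLC16A9 was higher in HS578T (1.01 ± 0.19). Of the acid-base genes 6 of 15 tested were higher in HS578T and 5 in SUM149PT. Carbonic anhydrase 2 (CA2) read 5293, 5422 and 4996 units on the SUM149PT arrays and 6.77, 3.45 and 2.43 units on the HS578T arrays (log2 difference -8.03 ± 0.11, adjusted p = 1.7e-24), while CA8, a carbonic anhydrase relative without catalytic activity, was at 1257, 1117 and 1103 units in HS578T and 32.5, 56.3 and 40 in SUM149PT (4.33 ± 0.31). The bicarbonate transporters SLC4A4 and SLC4A7 were higher in HS578T (2.54 ± 0.26 and 1.47 ± 0.15) and SLC4A11, SLC26A9 and SLC26A2 in SUM149PT (-2.32 ± 0.17, -2.51 ± 0.45 and -1.1 ± 0.09). On the probe set that an offset of 1 picks, SLC4A4 differed by 0.55 (adjusted p = 0.311).

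More mitochondrial genes were higher in SUM149PT than in HS578T. Pyruvate entry and the TCA cycle had 16 of 32 tested members higher in SUM149PT and 10 in HS578T, and 17 and 5 after median centring. The pyruvate dehydrogenase subunits PDHX and DLAT were higher in SUM149PT. PDHX read 6372, 6831 and 6974 units on the SUM149PT arrays and 1620.5, 2041 and 2111 units on the HS578T arrays (-1.81 ± 0.1), and DLAT averaged 1799.7 ± 96.6 units in HS578T and 4918 ± 194 in SUM149PT (-1.44 ± 0.08). PDK1, the kinase that switches that complex off, was higher in SUM149PT as well, at 1787, 1956 and 1798 against 725, 890.4 and 838 (log2 difference -1.16 ± 0.1, adjusted p = 1.64e-10), and the succinyl-CoA ligase subunit SUCLG2 differed by -1.89 ± 0.09. ME3, PDP1, PDK2 and PC were higher in HS578T (1.44 ± 0.36, 0.86 ± 0.07, 0.61 ± 0.26 and 0.55 ± 0.23), the last 2 at adjusted p of 0.0477 and 0.0414, with PC arrays that overlapped. Both calls were lost with median centring (adjusted p = 0.117 for PDK2 and 0.108 for PC), quantile normalization (0.133 and 0.103), no filter (0.0708 and 0.0577) and the replicate block (0.0562 and 0.0504), and each without any of 4 single arrays of the lines compared. In oxidative phosphorylation 1 of 45 tested members was higher in HS578T and 29 in SUM149PT (median log2 difference -0.31). NDUFS3 of complex I was 2.53-fold higher in SUM149PT (-1.34 ± 0.09), and COX7B, ATP5MC3 and COX7C differed by -1.01 ± 0.09, -0.95 ± 0.08 and -0.91 ± 0.09. The exception was COX7A1, the cytochrome oxidase subunit of muscle, at 1114, 891 and 769.8 units on the HS578T arrays and 2.44, 3.59 and 2.45 units on the SUM149PT arrays (log2 difference 5.63 ± 0.25, adjusted p = 2.27e-15). SUM159PT had 2.71 units.

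Of 8 pentose phosphate genes tested, 2 were higher in HS578T, 2 in SUM149PT and 4 did not pass the test, and after median centring 0 were higher in HS578T and 2 in SUM149PT. RPIA was 2.63-fold higher in SUM149PT (-1.38 ± 0.08), and TKT, H6PD and RPE had small differences (0.38 ± 0.11, 0.32 ± 0.13 and -0.23 ± 0.09). Median centring ended the calls of TKT (adjusted p = 0.12) and H6PD (0.176), and that of RPE ended without replicate 1 of HS578T (0.166) or of SUM149PT (0.0585). The H6PD call was also lost with quantile normalization (0.132), no filter (0.0618), the mean of probe sets (0.801) and only the arrays compared (0.0603). It was lost as well without replicate 1 or 3 of HS578T or any single SUM149PT array under DMSO. Hypoxia-responsive genes were also divided, at 9 higher in HS578T and 10 in SUM149PT of 24, with a median of 0.03 that was -0.07 after median centring. BNIP3L, a mitophagy receptor, was at 9770.2, 10291 and 10437 units in HS578T and 1913, 1878 and 1899 in SUM149PT (log2 difference 2.41 ± 0.08, adjusted p = 3.15e-18), and ARNT2 and P4HA2 were higher in HS578T (3.56 ± 0.25 and 1.18 ± 0.09). The oxygen sensors EGLN1 and EGLN3 and the factor EPAS1 were higher in SUM149PT (-1.39 ± 0.1, -1.14 ± 0.2 and -1.15 ± 0.09).

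Cholesterol synthesis leaned to HS578T, with 15 of 21 tested members higher there and 4 in SUM149PT, and a median of 0.5. HMGCS1, which makes HMG-CoA, read 4775, 4469.9 and 4326 units on the HS578T arrays and 400.3, 375 and 353 units on the SUM149PT arrays, a log2 difference of 3.53 ± 0.11 (SE, adjusted p = 1.63e-18). SQLE, SC5D and the sterol sensor INSIG1 were 4.52-fold, 4.42-fold and 3.69-fold higher by mean signal (2.17 ± 0.09, 2.13 ± 0.07 and 1.88 ± 0.1). EBP, the sterol isomerase of the same path, was the opposite, at 5.49, 5.13 and 5.01 units in HS578T and 3061, 3340.4 and 3391 in SUM149PT (log2 difference -7.27 ± 0.17, adjusted p = 1e-20). Of its 4 tested probe sets 3 were called in this direction. NSDHL, TM7SF2 and SREBF1 were slightly higher in SUM149PT (-0.76 ± 0.15, -0.65 ± 0.2 and -0.39 ± 0.14). The SREBF1 call was lost without replicate 2 of HS578T (adjusted p = 0.0967) or replicate 1 or 2 of SUM149PT (0.057 and 0.0895). In fatty acid synthesis 7 of 18 tested members were higher in HS578T and 6 in SUM149PT (median log2 difference 0.16), with FADS2, ELOVL6, ELOVL7 and ACSL1 higher in SUM149PT (-2.72 ± 0.21, -1.56 ± 0.13, -1.34 ± 0.1 and -1.28 ± 0.12) and FABP4, ACSL5, FADS3 and FABP5 in HS578T (2.67 ± 0.38, 1.23 ± 0.19, 1.11 ± 0.12 and 0.67 ± 0.1).

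Amino acid genes differed by single enzymes and carriers. ALDH1L2, a mitochondrial folate enzyme, read 900.1, 1140.1 and 1479.9 units on the HS578T arrays and 51.6, 41.7 and 47.5 units on the SUM149PT arrays (log2 difference 4.21 ± 0.2, adjusted p = 5.78e-15). The transsulfuration enzymes CBS and CTH, which make cysteine, and the cystine carrier SLC7A11 were 5.27-fold, 3.46-fold and 6.74-fold higher in HS578T (2.29 ± 0.16, 1.75 ± 0.14 and 2.72 ± 0.1). The carriers SLC1A1, SLC1A4 and SLC1A5 and asparagine synthetase (ASNS) were higher there too (3.42 ± 0.12, 1.6 ± 0.14, 1.52 ± 0.12 and 0.97 ± 0.07). Argininosuccinate synthase (ASS1), which lets cells make arginine, was at 3502, 3858 and 3481 units in SUM149PT and 307, 312 and 314 in HS578T (log2 difference -3.47 ± 0.08, adjusted p = 1.91e-20). The aspartate aminotransferase GOT2 (-2.0 ± 0.07), glycine decarboxylase GLDC (-2.27 ± 0.13) and SLC3A2 (-0.87 ± 0.08) were higher in SUM149PT, with smaller differences for ALDH18A1, AHCY and MTHFD2 (-0.63 ± 0.08, -0.51 ± 0.09 and -0.43 ± 0.07). With the mean of probe sets MTHFD2 was not called (adjusted p = 0.376). Serine and one-carbon genes counted 6 higher in HS578T and 4 in SUM149PT of 18, and glutamine, aspartate and arginine genes 10 and 5 of 21, which became 7 and 5 after median centring.

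Genes of the oxidant response regulated by NRF2 leaned to HS578T, with 14 higher there and 6 in SUM149PT of 28. Haem oxygenase 1 (HMOX1) was at 1788, 1692 and 1667 units in HS578T and 155, 115 and 154 in SUM149PT (log2 difference 3.47 ± 0.14, adjusted p = 3.93e-16), and AKR1C3 and GSTM2 were 4.24-fold and 4.47-fold higher (2.07 ± 0.12 and 2.06 ± 0.16). The abundant glutathione enzymes GPX1, MGST1 and GSTP1 were higher in SUM149PT (-1.03 ± 0.08, -1.0 ± 0.09 and -0.9 ± 0.12). GCLM was higher in SUM149PT on its brightest probe set (-0.6 ± 0.09), with 1 of 3 called the other way and a mean over probe sets of 0.33 (adjusted p = 0.0701). GSTM genes share long stretches of sequence, and AKR1C genes do too, so their probe sets may read one another.

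Proliferation genes had members on both sides and mostly small differences. Mitotic genes counted 15 higher in HS578T and 8 in SUM149PT of 30, and 11 and 11 after median centring. CCNB2 was 2.04-fold higher in HS578T (log2 difference 1.03 ± 0.06, adjusted p = 6.29e-13), with NUF2, KIF20A and KIF23 at 0.8 ± 0.07, 0.73 ± 0.07 and 0.69 ± 0.12, and the kinases AURKB and AURKA, BUB1B and UBE2C were higher in SUM149PT (-0.77 ± 0.11, -0.58 ± 0.06, -0.5 ± 0.07 and -0.43 ± 0.07). Of 2 tested AURKB probe sets 1 was called each way, and their mean was not called (adjusted p = 0.555). DNA replication genes leaned to SUM149PT, with 16 higher there and 8 in HS578T of 33. POLE2, a subunit of the leading-strand polymerase, was at 2940.0, 2891 and 2942 units in SUM149PT and 530.0, 473 and 495 in HS578T (log2 difference -2.51 ± 0.08, adjusted p = 8.12e-18), a 5.86-fold ratio, and RFC3, MCM10 and POLD3 followed (-0.99 ± 0.06, -0.96 ± 0.08 and -0.75 ± 0.07). GINS4, MCM5, GINS2 and POLD1 were higher in HS578T (1.28 ± 0.24, 0.95 ± 0.12, 0.55 ± 0.13 and 0.5 ± 0.12). On the SUM149PT scramble shRNA arrays GINS2 averaged 3300.0 ± 958 units, against 2953 ± 243 in HS578T and 2015 ± 116 in SUM149PT under DMSO. MCM5 and POLD1 lay between the DMSO means of the lines there, at 2357 ± 463 and 749.8 ± 166 units. GINS4, at 743 ± 356 units, remained below the 2165 ± 205 of HS578T.

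Cell cycle regulators held larger differences. CDKN2B, which encodes the inhibitor p15, read 788, 877 and 999 units on the HS578T arrays and 1.28, 1.41 and 14.2 units on the SUM149PT arrays (log2 difference 5.43 ± 0.24, adjusted p = 1.38e-15), and its neighbour CDKN2A, chosen after its values were seen, averaged 108 and 91.3 units. Cyclin D2 (CCND2) and RB1 were higher in HS578T, CCND2 at 189, 189 and 240.0 units against 3.81, 28 and 27.8 (2.71 ± 0.31). RB1 averaged 2216 ± 447 units in HS578T and 885 ± 105 in SUM149PT (1.3 ± 0.16). CDKN1A, the p21 gene, was 3.48-fold higher in SUM149PT (log2 difference -1.78 ± 0.16, adjusted p = 8.32e-10), with CCND3, CCNE1 and CDKN1C (-1.67 ± 0.11, -0.68 ± 0.1 and -1.0 ± 0.21). CDKN1A averaged 2365 ± 171 units in SUM149PT under DMSO but 457 ± 127 in SUM149PT cells carrying the scramble shRNA. The latter is below the 680.5 ± 76.6 of HS578T under DMSO, so the direction did not hold across control groups of SUM149PT. The cause was not tested. With the mean of its probe sets CCNE1 was not called (adjusted p = 0.484). Other genes that p53 can induce had no common direction (9 higher in HS578T and 5 in SUM149PT of 18). TP53INP1, ZMAT3, PLK2 and RRM2B were higher in HS578T (3.78 ± 0.23, 2.09 ± 0.18, 1.98 ± 0.14 and 1.54 ± 0.15) and AEN, PHLDA3 and DDB2 in SUM149PT (-1.81 ± 0.15, -0.89 ± 0.14 and -0.83 ± 0.14). ZMAT3 averaged 1894 ± 84.4 units in HS578T and 454 ± 183 in SUM149PT under DMSO, but 1691 ± 193 on the SUM149PT scramble shRNA arrays. TP53INP1, PLK2 and RRM2B averaged 31.8, 1182 and 397 units on those arrays, against 824, 3906 and 1239.7 in HS578T under DMSO. Immediate early genes, 4 higher in HS578T and 7 in SUM149PT of 13, were split among subunits of the AP-1 factor. JUN and FOSL2 were 2.99-fold and 3.39-fold higher in HS578T (1.58 ± 0.08 and 1.75 ± 0.14), with KLF6 and JUND (1.21 ± 0.08 and 0.61 ± 0.13), and JUNB, IER3 and the dim FOS were higher in SUM149PT (-2.0 ± 0.16, -1.07 ± 0.08 and -1.14 ± 0.35). The FOS call was lost without replicate 3 of HS578T (adjusted p = 0.0676).

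Cancer-testis genes, which are silent in most adult tissue outside the testis, were on in part in HS578T. Of 20 named on the array, 11 averaged at least 50 units in HS578T and 0 in SUM149PT. MAGEA6 read 11507, 10738 and 10566 units on the HS578T arrays and 9.66, 13.8 and 3.97 units on the SUM149PT arrays, a log2 difference of 8.78 ± 0.21 (SE, adjusted p = 1.37e-20). MAGEA12 averaged 5684 ± 45.2 units in HS578T and 15.7 ± 13.7 in SUM149PT (7.59 ± 0.25), and MAGEA1 averaged 2235 ± 249 units in HS578T and 11 ± 9.14 in SUM149PT (6.43 ± 0.23). CTAG2 read 1849, 1536 and 1467 units on the HS578T arrays and 1.98, 8.25 and 5.42 units on the SUM149PT arrays (6.27 ± 0.21). For all 4 the SUM149PT arrays were below the array median. Of the whole list, of 20 named on the array, 12 passed the low-signal filter, and of these 9 were higher in HS578T, 0 were higher in SUM149PT and 3 did not pass the test, with a median log2 difference of 4.83. A member dim in SUM149PT could pass that filter mainly through its signal in another line. The count and the median therefore describe the members kept and follow in part from the filter. SUM159PT averaged 10219 units of MAGEA6 and 9492 of MAGEA12, but 8.48 of CTAG2. MAGEC1 and DDX43, singled out after their values were seen, averaged 785 and 416 units in SUM159PT and under the array median in both lines compared. MAGEA genes are near-identical copies, so their probe sets may read one another and are not independent of each other.

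Markers of other cell types were checked in both lines. Of 13 leukocyte markers, 6 averaged at least 50 units in HS578T and 4 in SUM149PT. The pan-leukocyte gene PTPRC averaged 39 and 11.4 units in HS578T and SUM149PT, the B-cell gene CD79A 210.3 and 252 and the macrophage receptor CSF1R 134 and 92.4. CD14 and LAPTM5 were higher in SUM149PT (406, 328 and 432 against 32.4, 27.4 and 42.8 units, and 186, 225 and 214 against 59.2, 35.3 and 71.3). The summed signal of the leukocyte markers was 698 to 752 units in HS578T and 1003 to 1236 in SUM149PT. Of 12 endothelial markers 10 averaged under 50 units in each line, with ERG higher in HS578T (4.1 ± 0.28), ROBO4 in SUM149PT (-3.95 ± 0.19) and PECAM1 in HS578T (1.39 ± 0.19). Adipocyte markers summed to 1024 to 1170.1 units in HS578T and 2305 to 2315 in SUM149PT, with ADIPOQ, LEP and PLIN1 under 13 units in both and LPL at 1134, 1144 and 1034 units in SUM149PT and 146, 173 and 136 in HS578T. CIDEC and PPARG differed by 0.5 ± 0.15 and -0.87 ± 0.1. The part of such markers in the results was not tested. Genes often used as stable references did not all hold still, with 5 of 24 called higher in HS578T, 8 in SUM149PT and a median of -0.12. EMC7, HPRT1, GPI and TBP were higher in SUM149PT (-0.98 ± 0.08, -0.89 ± 0.07, -0.85 ± 0.1 and -0.82 ± 0.08), and RAB7A, VCP, IPO8 and YWHAZ in HS578T (0.67 ± 0.06, 0.26 ± 0.07, 0.23 ± 0.07 and 0.22 ± 0.06). Median centring left 1 called higher in HS578T and 9 in SUM149PT, and ended the calls of VCP (adjusted p = 0.293), IPO8 (0.302) and YWHAZ (0.352).

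The lines were measured again on 6 other arrays after 24 hours with AZD3965, an inhibitor of the lactate transporter MCT1. The difference between the lines was largely the same there. Of the 14141 genes 9531 (67.4%) passed the test under AZD3965, 29.5% of all tested higher in HS578T and 37.9% in SUM149PT. Of the 9079 genes called under DMSO, 8078 (89.0%) were called in the same direction under AZD3965, which is 84.8% of the calls made there, and 23 were called in the opposite direction. Of the 4253 genes at least 2-fold apart under DMSO, 4155 (97.7%) were called the same way and 2 the opposite way. POSTN differed by 9.71 and COL3A1 by 9.7 on the AZD3965 arrays, and CCL20 and CDH1 by -10.04 and -8.55. ZEB1, ESRP1 and KRT14 stood at 5.84, -5.07 and 3.23.

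The test of whether the line difference itself differed between AZD3965 and DMSO called 27 of 14141 genes (0.191%), 20 towards HS578T (0.141%) and 7 towards SUM149PT (0.0495%), and 2040 had an unadjusted p under 0.05. The median of all genes was -0.145 for the AZD3965 comparison, and after median centring 80 genes were called, 79 of them towards HS578T. The 4 genes of smallest p in each direction are described here with HK2, BNIP3L and ITGB8, called genes that the naming rule had also picked for the DMSO comparison. PDK1, -1.16 under DMSO, differed by -0.03 under AZD3965, where it read 1566, 1430.3 and 1675 units in HS578T and 1780.2, 1474 and 1534 in SUM149PT, so that arrays which did not overlap under DMSO did so here. HK2, higher in SUM149PT under DMSO (-0.64), differed by 0.48 under AZD3965, with 2421, 1848 and 2278 units in HS578T and 1726, 1396 and 1558 in SUM149PT, the reverse order without overlap. P4HA1, a collagen prolyl hydroxylase, went from 0.85 to 1.49 and the mitophagy receptors BNIP3 and BNIP3L from 0.64 to 1.29 and from 2.41 to 3.03. PTPRF, a receptor phosphatase, went from -1.51 to -0.58 and the integrin ITGB8 from -2.37 to -0.76. In the other direction CYB561D1, a cytochrome b561 family member, went from 1.16 to 0.12, WDR93 from 0.87 to -0.93, the noncoding RNA DANCR from 0.56 to -0.21 and ANAPC15, a subunit of the anaphase-promoting complex, from 0.22 to -0.54. The number of such calls depended on single arrays. It was 6 without replicate 1 and 57 without replicate 3 of HS578T under DMSO, and 9 and 8 without replicates 1 and 3 of HS578T under AZD3965. It was 5 and 17 without replicates 1 and 3 of SUM149PT under DMSO, and 214, 10 and 11 without replicates 1, 2 and 3 of SUM149PT under AZD3965. Leaving out replicate 3 of the scramble shRNA group, an array with actin and GAPDH ratios of 53.8 and 2.35 that enters only the shared spread, gave 70.

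**Figure D4:**
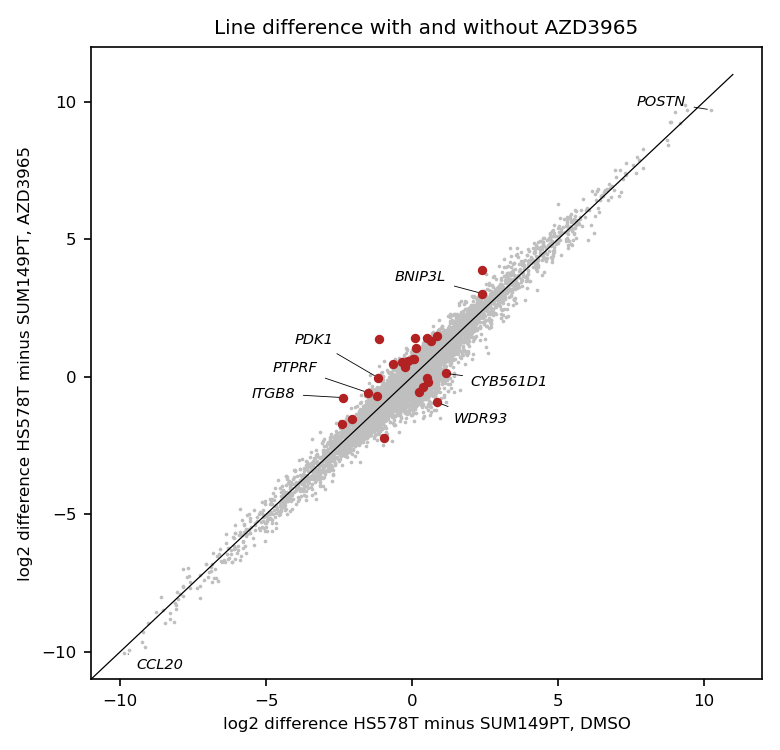
Each point is 1 of 14141 tested genes, placed by its log2 difference of signal + 16 between the lines (HS578T minus SUM149PT) on the DMSO arrays (x axis) and on the AZD3965 arrays (y axis), with the line of equality drawn and the 27 genes whose difference changed (limma adjusted p under 0.05) in red. Most points lie along the line from CCL20 to POSTN, and PDK1, PTPRF and ITGB8 lie above it and CYB561D1 and WDR93 below it.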

How the data were processed

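RNA was measured as biotin-labelled cRNA on 24 Affymetrix arrays, 8 groups of 3. Per the submitters' processing notes the deposited intensity values came from MAS5 on a linear scale (version not given in the sources used here), and their trimmed mean was 500.1 on every array. Of 54675 probe sets, 41097 had 1 gene symbol, 1801 several and 11777 none, and 41043 were looked up in RefSeq. The gene targeted by the shRNA is not reported here. Each of 19775 genes was represented by its probe set of highest mean log2(signal + 16). A low-signal filter at the 40th percentile of mean log2(signal + 16), 5.58, left 14141 genes to test. A linear model of the 8 groups, using limma 3.58.1 under R 4.3.3, took in all arrays (eBayes with trend, 16 residual and 6.52 prior degrees of freedom). Adjusted p-values are from that two-sided test with Benjamini-Hochberg adjustment over all 14141 genes, and the adjusted p under 0.05 was the threshold.

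Named genes were the 10 largest called differences each way without overlap, a fixed list of line markers, up to 4 called members each way in each of 54 gene lists, and the 4 genes of smallest p each way in the test of the changed difference. Members and lists were chosen with earlier results of these data known, and list counts are descriptions with no test. Same-numbered arrays of HS578T and SUM149PT under DMSO showed little shared deviation (correlations of -0.061, -0.00633 and 0.0573). Whether same-numbered DMSO and AZD3965 arrays of a line were paired was not examined this way. Alternatives were the offset, the filter, the scaling, the probe set rule, the model and leaving out each array. The number of arrays limits the precision. The fit was also run on simulated data, with independent noise around a mean shared by all groups and changes added to some genes. Such data are simpler than these arrays, so that run is not used as support for the results.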

Additional observations from a re-analysis of the deposited data

Results flagged for a closer look

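The difference between the lines itself differed between AZD3965 and DMSO for the genes given here, by limma's test of that change with adjustment over 14141 genes. Values are the log2 difference under AZD3965 minus that under DMSO, so a positive value is a shift towards HS578T. PDK1, the pyruvate dehydrogenase kinase, shifted by 1.13 ± 0.14 (SE, adjusted p = 0.000355), and HK2, hexokinase 2, by 1.11 ± 0.2 (adjusted p = 0.0135). P4HA1 shifted by 0.65 ± 0.08 (adjusted p = 0.000762), BNIP3 by 0.65 ± 0.09 (adjusted p = 0.00113) and BNIP3L by 0.62 ± 0.11 (adjusted p = 0.0135). For PTPRF the shift was 0.93 ± 0.14 (adjusted p = 0.00588), and for ITGB8 it was 1.61 ± 0.32 (adjusted p = 0.0369). Shifts towards SUM149PT were -1.04 ± 0.17 for CYB561D1 (adjusted p = 0.0112), -0.77 ± 0.14 for DANCR (adjusted p = 0.0135), -0.76 ± 0.14 for ANAPC15 (adjusted p = 0.0211) and -1.8 ± 0.35 for WDR93 (adjusted p = 0.0287). A test for outlying values was not applied to groups of 3 arrays.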

How the results depend on the processing

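Under DMSO 9079 genes were called. Without 1 array at a time the count was 8572 to 9324 (2-fold 4220 to 4318), and it was 9062 with a replicate block, which moved no count by over 1.5 times, and 9116 with only the 6 arrays compared and the replicate block, chosen after seeing the data. Against a 2-fold difference limma's treat test called 2759, and each probe set on its own gave 15947 calls (8259 higher in HS578T, 7688 in SUM149PT, 7780 at 2-fold). Centring moved the median of all genes to -0.119, and 8366 of the 9079 calls kept their direction. The mean of probe sets reversed EGFR (0.18, adjusted p = 0.244), CD44 (-0.73, adjusted p = 1.1e-06), ENO3 (0.07, adjusted p = 0.793) and GCLM (0.33, adjusted p = 0.0701), and turned 66 of the DMSO calls. Of 7230 values of named genes, 7151 kept direction and side of the threshold, 73 lost it, 2 gained it and 4 reversed, in 32 of 348 genes, and 2203 of 2268 list counts stayed within 1.5 times. The 27 genes whose difference changed with AZD3965 were less steady: 80 with median centring (79 positive, 1 negative, 31 at 2-fold), 12 positive and 13 negative with the mean of probe sets, 13 negative with no trend, and 4 negative and 5 at 2-fold with only the arrays compared. With the replicate block they were 22, and 5 with only the arrays compared and the replicate block (5 positive, 0 negative, 1 at 2-fold). Without 1 array at a time they were 5 to 214 (4 to 148 positive, 1 to 66 negative, 2 to 40 at 2-fold). The cause was not tested. An offset of 64 made the difference over 1.5 times smaller for 32 of 346 called named genes. An offset of 1 also changed the probe set of 9 named genes, LUM (9.2 to 6.03), ID4, WNT5B and SLC4A4 among them. On the same probe sets, a setting chosen after seeing the data, it made 7 over 1.5 times larger and none over 1.5 times smaller. Dim signals limit the size of differences.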

Other observations

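EBP and COX7A1 stood apart from their chromosomal neighbours in RefSeq gene order (GRCh38.p14), a description made after the values were seen. EBP, the sterol isomerase, averaged 5.21 units in HS578T, 3264 in SUM149PT and 2857 in SUM159PT. Its neighbours TBC1D25 (185 and 144 units in HS578T and SUM149PT), RBM3 (2454 and 2346) and FTSJ1 (1190.0 and 2396) had signal in both lines. COX7A1 averaged 925 units in HS578T, 2.83 in SUM149PT and 2.71 in SUM159PT, while CAPNS1 (6407 and 4215) and TBCB (8029 and 2665) beside it were bright in both lines.

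Around CDKN2B the neighbours were mixed. CDKN2B averaged 888 units in HS578T and 5.64 in SUM149PT, and ELAVL2 and TUSC1 further along read 237 and 13.4 and 3356 and 19.3. CDKN2A near it read 108 and 91.3. DMRTA1 (20.4 and 4.15), CDKN2B-AS1 (1.88 and 1.48) and CDKN2A-AS1 (5.95 and 2.63) were dim in both lines. Among 14128 placed genes, 35 runs of at least 5 consecutive tested genes were all called at least 2-fold in the same direction, 16 higher in HS578T and 19 in SUM149PT, and the longest held 12 genes. A run of that length higher in SUM149PT held CXCL8, CXCL6, CXCL1, CXCL3, CXCL2, EREG and BTC, and another higher in HS578T reached from TRIO to CDH12. Runs of protocadherin beta genes (10) and of zinc finger genes from ZNF404 to ZNF234 (11) were higher in HS578T. Genes of such clusters resemble each other, and probe sets may read a neighbour's RNA.

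Some genes below the low-signal filter also differed between the lines. COL14A1 averaged 376 units in HS578T and 4.98 in SUM149PT, CCL2 201 and 9.48, the stem cell receptor LGR5 130.4 and 11, and SLC16A4 117 and 11.8, while CXCL5 averaged 9.11 and 124.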
